A study of Mus musculus with 14 samples.

Results

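The genotype contrast in injured kidneys set 3 VE-PTPiKO libraries against 3 Control libraries, all taken 5 h after ischemia-reperfusion (IR) injury of the kidney in 9-week-old mice. These 6 libraries are 6 of the 12 bulk RNA-seq libraries and of the 14 samples in the series, and they were chosen by their labels for genotype and treatment. The 6 sham-operated libraries of the same genotypes (3 Control and 3 VE-PTPiKO, also 9 weeks old and taken at 5 h) give the genotype difference without injury. Each library was made from RNA of a whole kidney, so a lower level of a transcript in bulk tissue cannot be told apart from fewer cells of the type that makes it. The submitters call the targeted genotype VE-PTPiKO, after the phosphatase VE-PTP. The labels used here give neither the Cre driver, the deleted part of the gene, the strain nor the ischemia time of the bulk experiment, and they do not say whether each library came from a separate animal. All p-values therefore measure the spread between these libraries, which may in part be technical.

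VE-PTP is a receptor-type tyrosine phosphatase of endothelial cells and is encoded by Ptprb. It removes phosphate from Tie2 (gene Tek), the receptor for the angiopoietins, of which Angpt1 is the stable agonist and Angpt2 the context-dependent ligand released by activated endothelium. Tie2 signalling through AKT holds FOXO transcription factors out of the nucleus, tightens endothelial junctions and lowers the display of leukocyte adhesion molecules, and inhibition or loss of VE-PTP is known to raise Tie2 activity. The contrast addresses whether injured VE-PTPiKO kidneys carry a different transcript profile from injured Control kidneys.

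The 6 IR libraries held between 15427887 and 19947154 reads assigned to genes. Proximal tubule genes summed to 55756 to 63423 CPM (reads scaled to the library total) in Control IR and 57015 to 63071 in VE-PTPiKO IR, which matches the tissue label. VE-PTPiKO IR replicate 3 stood apart before any genotype comparison. The nuclear RNA Malat1 made up 1.96% of its reads, against 0.395% to 0.506% in the 5 other IR libraries. Its correlation with the other 5 IR libraries across genes was 0.972 to 0.979, while those 5 correlated with each other at 0.984 to 0.987. Its difference from the mean of the 3 Control IR libraries leaned upward with transcript length (Spearman rho across genes 0.27), and those of VE-PTPiKO IR replicates 1 and 2 leaned downward (−0.27 and −0.22). Of 94 genes followed on leaving out single IR libraries, 25 changed sign or moved by over 1.5 times without VE-PTPiKO IR replicate 3. That number was 15 without Control IR replicate 1, 15 without Control IR replicate 2, 13 without VE-PTPiKO IR replicate 2 and 7 without either of the remaining libraries.

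**Figure D1:**
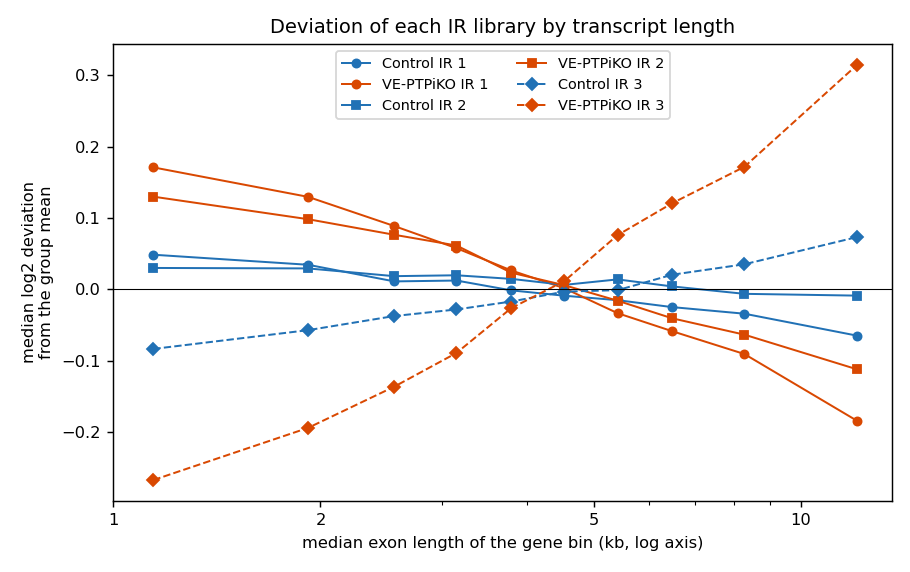
Median log2 deviation of each IR library from its group mean (y axis) for genes grouped into 10 equal bins by exon length (x axis, kb, log scale), with Control IR in blue and VE-PTPiKO IR in orange. VE-PTPiKO IR replicate 3 runs from −0.27 for the shortest genes to 0.31 for the longest, and VE-PTPiKO IR replicates 1 and 2 run the other way, as they must in part because deviations within a group sum to 0.

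No gene differed between VE-PTPiKO IR and Control IR at an adjusted p under 0.05. Of 16339 genes tested by limma across all 12 libraries, 0 were called (percent called 0), and the smallest adjusted p was 0.99986. At an unadjusted p under 0.05 there were 709 genes, 4.34% of those tested, where 816.95 would be counted if no gene differed. That count rested on VE-PTPiKO IR replicate 3: it was 1467 without this library, 2009 without the 3 libraries highest in Malat1 and 2657 with library weights, with 0 genes called in each. Of the 709, 301 lay higher in VE-PTPiKO IR (1.84%) and 408 lay lower (2.5%). The edgeR quasi-likelihood test on the recovered reads also called 0 genes (696 at unadjusted p under 0.05), and DESeq2 called 1, Mfsd4b5 (657 at unadjusted p under 0.05). Groups of 3 that did not overlap were found for 1497 genes (9.16%), 649 of them higher (3.97%) and 848 lower (5.19%) in VE-PTPiKO IR. Groups this small often separate by chance, so non-overlap is given below as a description of values and not as a result. Unadjusted limma p-values are printed below as a description of single genes, and every gene named has an adjusted p of at least 0.99986. Genes named from lists were mostly those of smallest p in this contrast, so their differences and separation are in part set by the choice. No source used here gives the strand setting of the counting, and values of genes whose exons overlap another gene are uncertain: of those named, Egfl7, Angpt1, Csf1r, Hspa1a, Gadd45a, Txnip, Selp and Vwa1 do so over 11.2% to 25.2% of their exon length, and others over less than 10%.

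The precision of the contrast sets what it could have shown. The median log2 difference over all genes was −0.02, and 46.4% of genes had a positive difference. For the 10615 genes that averaged 5 CPM or more over the IR libraries, the 95% interval of the difference had a median half-width of 0.35 on the log2 scale, or 1.28-fold. The whole interval lay within 2-fold in either direction for 10234 of these genes (96.4%) and within 1.5-fold for 7777 (73.3%). Only 17 of them had an estimated difference of 2-fold or more, 8 higher and 9 lower, and the groups did not overlap for 3 and 7 of these.

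**Figure D2:**
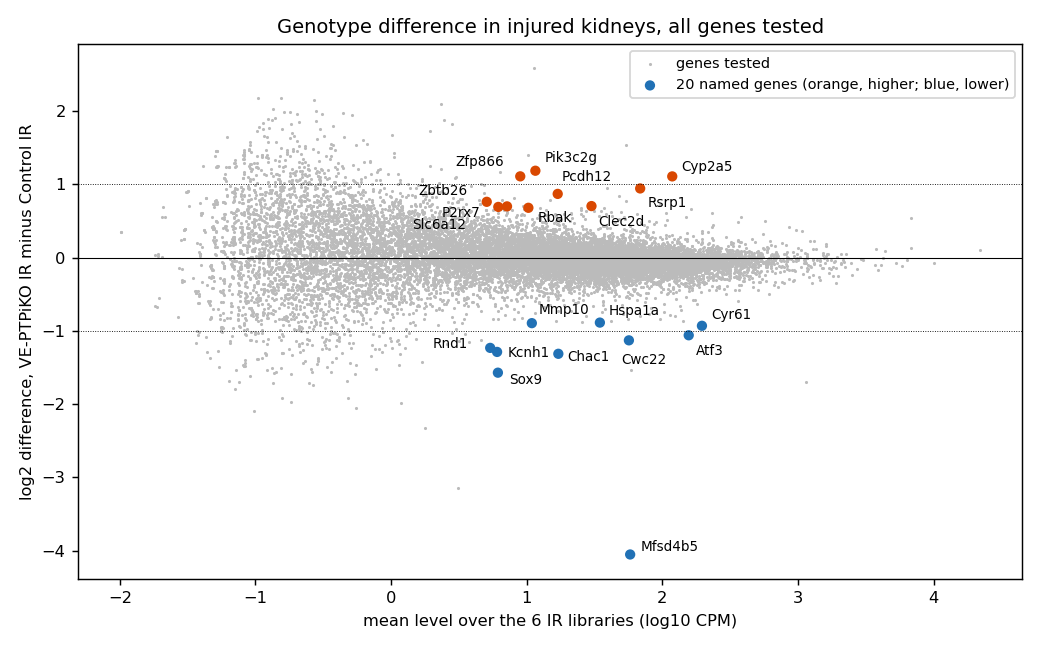
Log2 difference of VE-PTPiKO IR minus Control IR (y axis) against mean level over the 6 IR libraries (x axis, log10 CPM) for all genes tested, with the 10 highest and 10 lowest genes of the naming rule in colour. Dotted lines mark 2-fold; among the coloured genes Mfsd4b5 lies lowest at −4.05 and Pik3c2g highest at 1.19.

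Ptprb, the targeted gene (mm10 chromosome 10, 116301374 to 116389538), was examined first in every library. It stood at 2039.7, 2156 and 2721 normalised reads in Control IR and 1314, 1677 and 2114 in VE-PTPiKO IR. In sham kidneys it stood at 3061, 4363 and 3269 in Control and 2068, 2852 and 3049 in VE-PTPiKO. The VE-PTPiKO IR level was 1.37-fold lower (log2 difference −0.45 ± 0.20 SE, unadjusted p = 0.0413), with the highest VE-PTPiKO IR library above the lowest Control IR library, and the sham difference was −0.43. These counts cover all exons together and do not resolve a deletion of single exons. On leaving out each library the IR difference ran from −0.63 (without VE-PTPiKO IR replicate 3) to −0.28 (without VE-PTPiKO IR replicate 1).

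Among the genes of the angiopoietin-Tie pathway, the receptors Tek and Tie1 and the ligands Angpt1 and Angpt2 differed by at most 1.27-fold. Tek stood at 838, 768 and 1182 normalised reads in Control IR and 1012, 1400.2 and 1103 in VE-PTPiKO IR (log2 difference 0.35 ± 0.16 SE, unadjusted p = 0.0455), and the ranges overlapped. Tie1, the orphan partner receptor of Tie2, differed by 0.06 (95% interval −0.18 to 0.31) and Angpt1 by 0.15 (95% interval −0.17 to 0.46). Angpt2 stood at 493, 517 and 519 normalised reads in Control IR and 449.8, 398 and 395 in VE-PTPiKO IR, with all 3 VE-PTPiKO libraries below all 3 Control libraries (log2 difference −0.30 ± 0.12 SE, unadjusted p = 0.0308; 1.23-fold lower). In sham kidneys the Angpt2 difference was −0.03. Over the 13 genes of this list, 8 had a positive and 5 a negative difference, 0 were called, and the median was 0.06 against −0.02 for all genes. Without VE-PTPiKO IR replicate 3 the median was −0.13, so its sign rested on that library.

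Targets of FOXO factors, which are active when AKT signalling is low, differed in direction. Of 18 genes, 12 had a positive and 6 a negative difference (median 0.14; range leaving out each IR library in turn 0.04 to 0.19), and 0 were called. Their summed level was 2199.5 to 2833 CPM in Control IR and 2849.6 to 3327 in VE-PTPiKO IR. In sham kidneys the median difference of the list was 0.15, and the summed levels overlapped between genotypes. Txnip, an inhibitor of thioredoxin, stood at 18329.8, 15224 and 15566 normalised reads in Control IR and 19927, 23163 and 19943 in VE-PTPiKO IR, higher in every VE-PTPiKO library (log2 difference 0.36 ± 0.15 SE, unadjusted p = 0.0328). Trim63, a ubiquitin ligase, was also higher without overlap (log2 difference 0.56 ± 0.27 SE, unadjusted p = 0.0605). Gadd45a, a growth-arrest gene that p53 also induces, lay the other way (log2 difference −0.58 ± 0.23 SE, unadjusted p = 0.0232; −0.35 without VE-PTPiKO IR replicate 3), with overlapping groups.

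Genes that mark endothelial cells overlapped in summed level between the genotypes. Their summed level was 1017 to 1289.8 CPM in Control IR and 1168 to 1341 in VE-PTPiKO IR, none of the 22 was at or near 0, and the median difference was 0.10 (0.02 to 0.15 leaving out each IR library). Of the 22, 16 had a positive and 6 a negative difference, with 0 at an unadjusted p under 0.05. Single differences ran from −0.51 to 0.40. Members lower without overlap numbered 2 (background 5.19%) and members higher without overlap 0 (background 3.97%). The endothelial lectin Clec14a (0.40 ± 0.20 SE), the secreted factor Egfl7 (0.27 ± 0.15 SE) and the fenestral diaphragm gene Plvap (0.20 ± 0.12 SE) had positive log2 differences. Von Willebrand factor, Vwf, had a negative one (−0.51 ± 0.29 SE).

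Vcam1 and Sele, adhesion molecules by which activated endothelium captures leukocytes, stood lower in every injured VE-PTPiKO kidney library than in any injured Control library. Both were named for a small p within a list, so this separation is in part set by the choice. Vcam1, which binds leukocyte integrins and is also made by injured tubules, stood at 877, 899 and 593 normalised reads in Control IR and 529.8, 443 and 428 in VE-PTPiKO IR. All 3 VE-PTPiKO libraries lay below the lowest Control library, a 1.67-fold difference (log2 difference −0.74 ± 0.17 SE, unadjusted p = 0.000728; 95% interval −1.10 to −0.37). In sham kidneys Vcam1 was 361, 314 and 297 in Control and 347, 370.4 and 299 in VE-PTPiKO, with overlapping groups and a difference of 0.06. Its interaction estimate, the IR difference minus the sham difference, was −0.80 ± 0.24 SE, unadjusted p = 0.00501, also short of adjustment.

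Sele, which encodes E-selectin and is restricted to endothelium, gave the same order at a lower read count. It stood at 79.0, 132 and 67.1 normalised reads in Control IR and 50.9, 38.1 and 31.6 in VE-PTPiKO IR, 2.22-fold lower in VE-PTPiKO without overlap (log2 difference −1.15 ± 0.29 SE, unadjusted p = 0.00158). Its sham difference was −0.24 and its interaction estimate −0.91 ± 0.41 SE, unadjusted p = 0.0442. Without VE-PTPiKO IR replicate 3 the IR differences were −0.68 for Vcam1 and −0.998 for Sele. Ednrb, the endothelin B receptor, lay on the other side at 877, 1265 and 1729.9 normalised reads in Control IR and 2017, 2476 and 1722 in VE-PTPiKO IR (log2 difference 0.72 ± 0.20 SE, unadjusted p = 0.00360). VE-PTPiKO IR replicate 3 and Control IR replicate 3 were nearly equal for Ednrb, and its difference was 0.47 without Control IR replicate 1. In sham kidneys Ednrb was also higher in VE-PTPiKO without overlap, with a difference of 0.39. Its interaction estimate was 0.33 ± 0.29 SE, unadjusted p = 0.267.

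The genes listed for endothelial activation and adhesion as a whole did not all share the direction of Vcam1 and Sele. Of 16 tested members, 11 had a negative and 5 a positive difference, with a median of −0.13 and 0 called. Negative members at an unadjusted p under 0.05 numbered 5 (background 2.5%) and 4 lay lower without overlap (background 5.19%). The first count was 2 without Control IR replicate 2 or VE-PTPiKO IR replicate 2, and 3 without Control IR replicate 1 or VE-PTPiKO IR replicate 3. Named as the ends of the list, Selp, the platelet and endothelial P-selectin, lay at −1.31 and Adamts4, a proteoglycan-cleaving protease, at 1.40 on the log2 scale, and both overlapped between groups. Ackr1 and Madcam1, which mark specialised venules, were at 3 reads or fewer in every IR library. Among VEGF signalling genes the ligands Vegfb (−0.28 ± 0.12 SE) and Vegfa (−0.23 ± 0.14 SE) had negative log2 differences, and those of Vegfb did not overlap.

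**Figure D3:**
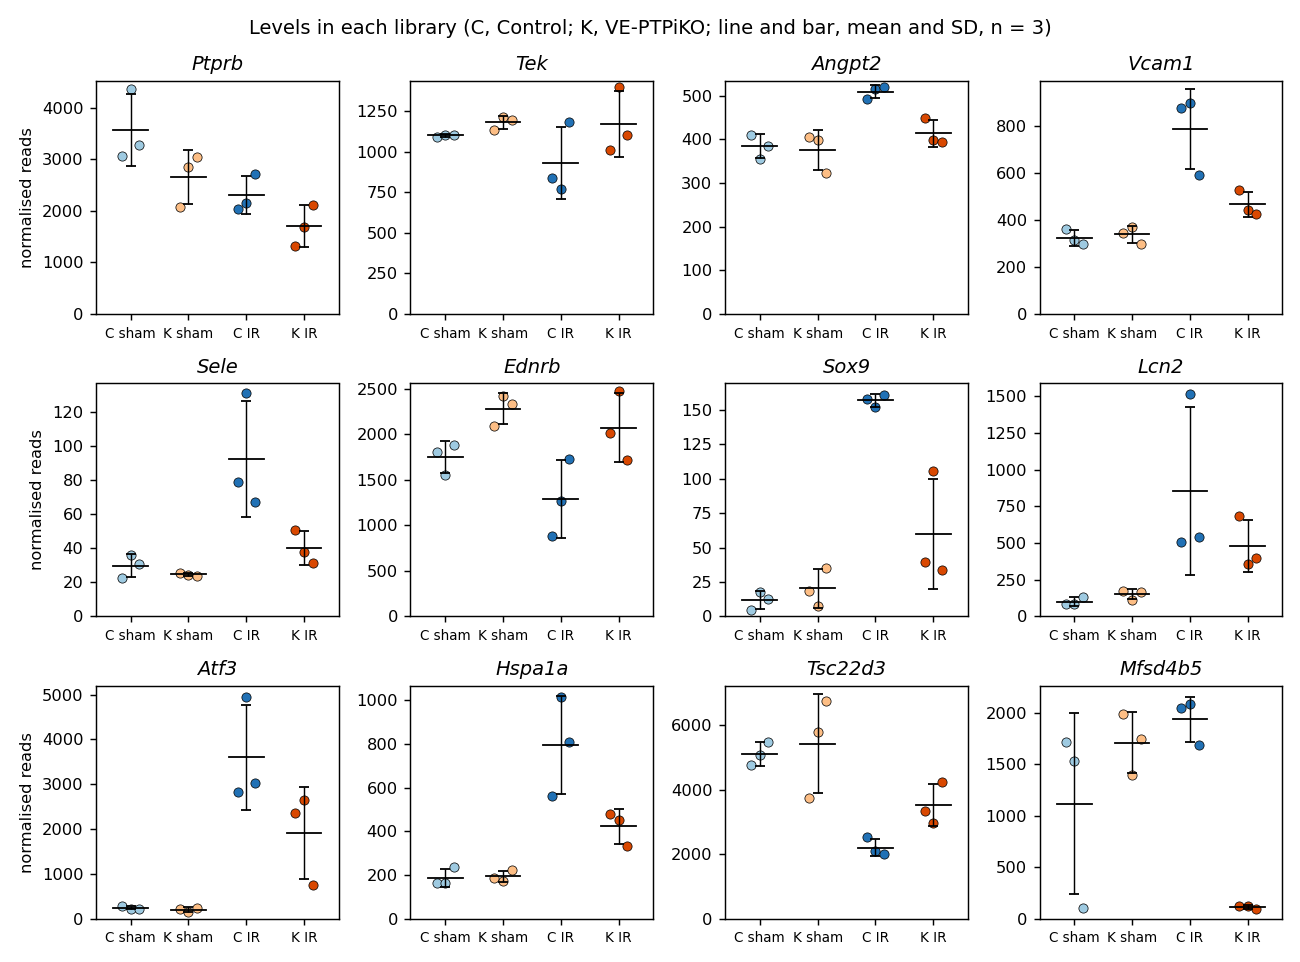
Normalised reads (y axes, linear from 0) of 12 genes in each library of the 4 groups, with the mean and SD of n = 3. Vcam1, Sele, Sox9, Atf3 and Hspa1a lie lower in all 3 VE-PTPiKO IR than in all 3 Control IR libraries, and Mfsd4b5 is low in all 3 VE-PTPiKO IR libraries and in Control sham replicate 3.

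Injury markers of the tubule divided. Havcr1, which encodes KIM-1 of the injured proximal tubule, stood at 329, 223 and 249.6 normalised reads in Control IR and 302, 175 and 459.9 in VE-PTPiKO IR, with overlapping groups (log2 difference 0.14 ± 0.29 SE, unadjusted p = 0.646). Without VE-PTPiKO IR replicate 3 its difference was −0.20, so its sign rested on that library. Lcn2, the iron-siderophore carrier NGAL, stood at 507, 1516 and 538 normalised reads in Control IR and 682, 360.1 and 396 in VE-PTPiKO IR (log2 difference −0.70 ± 0.38 SE, unadjusted p = 0.0905). Control IR replicate 2 alone lay far above the other libraries for Lcn2, and the remaining 2 Control libraries lay inside the VE-PTPiKO range. Its difference was −0.19 without that library.

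Sox9, a transcription factor of regenerating tubule cells, was more uniform in Control IR. It stood at 158, 152 and 161 normalised reads in Control IR and 39.5, 106 and 33.8 in VE-PTPiKO IR, 2.97-fold lower in VE-PTPiKO without overlap (log2 difference −1.57 ± 0.56 SE, unadjusted p = 0.0145; 95% interval −2.78 to −0.37). Its sham levels were 4.496, 17.5 and 12.8 in Control and 18.2, 7.52 and 35.2 in VE-PTPiKO, and the interaction estimate was −2.27 ± 0.79 SE, unadjusted p = 0.0130. Further members with non-overlapping groups were the EGF receptor ligand Hbegf, at 3701, 4538 and 3282 normalised reads in Control IR and 2610.5, 3139.8 and 1805 in VE-PTPiKO IR (log2 difference −0.63 ± 0.19 SE, unadjusted p = 0.00586; −0.41 without VE-PTPiKO IR replicate 3), and the YAP target Cyr61, at 3854, 5797 and 3923 normalised reads in Control IR and 2917, 2437 and 1778 in VE-PTPiKO IR (log2 difference −0.93 ± 0.26 SE, unadjusted p = 0.00355). The matrix metalloproteinase Mmp10, listed at 0 in all 6 sham libraries, stood at 319, 209 and 222 normalised reads in Control IR and 169, 140.3 and 95.9 in VE-PTPiKO IR (log2 difference −0.90 ± 0.31 SE, unadjusted p = 0.0130).

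Across the tubular injury list 19 of 26 genes had a negative difference and 7 a positive one, with 0 called. The median was −0.16, and −0.24 to −0.07 leaving out each IR library. Members lower at an unadjusted p under 0.05 and members lower without overlap both numbered 5 of 26, against 2.5% and 5.19% of all genes, and the first count was 8 without Control IR replicate 1. The summed level of the list overlapped between groups, at 3606 to 4940.4 CPM in Control IR and 3449 to 3997 in VE-PTPiKO IR.

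Immediate early and AP-1 genes, which encode the transcription factors and feedback proteins that cells make within minutes to hours of stress, stood lower in injured VE-PTPiKO kidneys in 23 of 28 cases. Their summed level was 3181 to 4213 CPM in Control IR and 2747 to 3038 in VE-PTPiKO IR, without overlap. The median difference was −0.32 against −0.02 for all genes, and 0 members were called. Without VE-PTPiKO IR replicate 3 the median was −0.32, and 20 to 25 members were negative when each IR library was left out in turn. Of the 28, 9 lay lower at an unadjusted p under 0.05 (background 2.5%) and 8 lay lower without overlap (background 5.19%). Without Control IR replicate 2, which was the highest library for many of these genes, 0 had an unadjusted p under 0.05 and the median was −0.22. That count was 4 without VE-PTPiKO IR replicate 1. Genes of a list share their libraries, so such counts are not independent results.

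Atf3, a stress-induced bZIP factor, stood at 2830.0, 4952 and 3038 normalised reads in Control IR and 2361, 2639 and 752 in VE-PTPiKO IR, 2.09-fold lower (log2 difference −1.06 ± 0.38 SE, unadjusted p = 0.0162). VE-PTPiKO IR replicate 3 was the lowest by far, and without it the Atf3 difference was −0.49. Junb, a subunit of AP-1, stood at 2212, 3256 and 2445 normalised reads in Control IR and 1830.3, 2207 and 1352 in VE-PTPiKO IR (log2 difference −0.56 ± 0.21 SE, unadjusted p = 0.0184; −0.37 without VE-PTPiKO IR replicate 3). Btg2, an antiproliferative gene of the p53 and immediate early programmes, stood at 2376, 3877 and 3162 normalised reads in Control IR and 1904, 2249 and 2192 in VE-PTPiKO IR (log2 difference −0.54 ± 0.19 SE, unadjusted p = 0.0149), and Klf6, a zinc finger factor induced by injury, at 14148, 17193 and 13363 normalised reads in Control IR and 12149.7, 12428 and 10769.7 in VE-PTPiKO IR (log2 difference −0.33 ± 0.13 SE, unadjusted p = 0.0227). All 4 genes lay lower without overlap in IR, and their sham differences were between −0.26 (Atf3) and −0.06 (Junb). They were named by smallest p within lists or by size of difference, so the IR separation is in part set by the choice.

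Heat shock genes, whose products refold proteins damaged by stress, stood lower in injured VE-PTPiKO kidneys in 17 of 18 cases. Their summed level was 3611 to 4157 CPM in Control IR and 2788 to 3443 in VE-PTPiKO IR, again without overlap. Of the 39 gene lists, summed levels also lay lower without overlap for coagulation and fibrinolysis. They lay higher without overlap for FOXO targets, gluconeogenesis and cell cycle, and overlapped for all remaining lists. Sums of groups of 3 can separate by chance as well. The median difference was −0.29, or −0.19 without VE-PTPiKO IR replicate 3, with 14 to 17 members negative on leaving out each IR library. Of the 18, 6 had an unadjusted p under 0.05 in this direction (background 2.5%), 8 did not overlap (background 5.19%) and 0 were called. Without Control IR replicate 2 the first count was 2.

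Hspa1a, an inducible HSP70, stood at 562, 1013 and 810.1 normalised reads in Control IR and 479.9, 454 and 333 in VE-PTPiKO IR, 1.85-fold lower (log2 difference −0.89 ± 0.22 SE, unadjusted p = 0.00163; interaction −0.95 ± 0.32 SE, unadjusted p = 0.0103). Hspa1b, its near-identical neighbour, stood at 926, 1521 and 1310.2 normalised reads in Control IR and 883, 782 and 473 in VE-PTPiKO IR (log2 difference −0.83 ± 0.29 SE, unadjusted p = 0.0119), and reads of the 2 copies cannot be fully separated. Bag3, the co-chaperone that links HSP70 to autophagy, stood at 1488, 1816 and 1452 normalised reads in Control IR and 950.5, 1109.7 and 1180.3 in VE-PTPiKO IR, 1.47-fold lower (log2 difference −0.55 ± 0.14 SE, unadjusted p = 0.00170; interaction −0.65 ± 0.20 SE, unadjusted p = 0.00602). Dnajb1, an HSP40 partner of HSP70, stood at 1982, 3249 and 2299.9 normalised reads in Control IR and 1891, 1816 and 841 in VE-PTPiKO IR (log2 difference −0.79 ± 0.26 SE, unadjusted p = 0.0108), and its difference was −0.41 without VE-PTPiKO IR replicate 3. In each of these 4 genes every VE-PTPiKO IR library lay below every Control IR library, while the sham differences were 0.06, −0.26, 0.10 and −0.16. The 4 were named for the smallest p of the list in IR kidneys, so the IR separation is in part set by the choice.

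Heat shock genes are classically driven by heat shock factor 1, which binds inverted repeats of the unit GAA. The 250 bases before the start of 3 of these genes are shown because the genes stood lower together and because 2 of them are copies. Dnajb1, which has 2 windows, held no match in either and is not printed. They are from RefSeq (GRCm38.p6), written 5′ to 3′ on the gene's strand, and lie at chr17:34972157-34972406 for Hspa1a (minus strand), chr17:34959239-34959488 for Hspa1b (minus strand) and chr7:128523333-128523582 for Bag3 (plus strand). Capitals mark a pair of facing units (GAANNTTC or TTCNNGAA, each of which reads the same on both strands).
Hspa1a: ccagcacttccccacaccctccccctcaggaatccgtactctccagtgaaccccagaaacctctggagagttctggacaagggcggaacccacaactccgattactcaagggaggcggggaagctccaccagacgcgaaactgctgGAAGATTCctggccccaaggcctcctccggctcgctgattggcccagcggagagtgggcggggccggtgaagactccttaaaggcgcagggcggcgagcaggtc
Hspa1b: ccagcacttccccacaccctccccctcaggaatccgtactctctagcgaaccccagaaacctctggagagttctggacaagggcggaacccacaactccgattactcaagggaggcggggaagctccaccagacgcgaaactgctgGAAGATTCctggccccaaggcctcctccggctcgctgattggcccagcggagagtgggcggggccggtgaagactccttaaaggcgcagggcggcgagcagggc
Bag3: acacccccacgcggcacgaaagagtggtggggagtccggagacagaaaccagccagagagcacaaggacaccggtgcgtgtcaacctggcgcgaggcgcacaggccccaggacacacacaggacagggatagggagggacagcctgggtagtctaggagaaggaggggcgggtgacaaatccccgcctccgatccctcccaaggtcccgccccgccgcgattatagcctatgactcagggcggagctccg
The Hspa1a and Hspa1b windows were identical at 247 of 250 bases, and both held 1 match, 104 bases before the start. The Bag3 window held no such letters. Of 18 heat shock genes 14 had a window and 8 of these held at least 1 match in any of their windows, among them the near-identical Hspa1a and Hspa1b. Of all 32851 windows of this length 12.8% held a match. The first count is by gene and the second share is by window. A gene can have several windows, so the 2 are not in the same unit. The longer run of 3 alternating units at the same spacing, which contains the shorter pair, was in 2 of the 14, Hspd1 and Hspe1, and in none of the windows printed. It was in 0.466% of all windows, again a share of windows and not of genes. The windows of Hspd1 and Hspe1 were not compared with each other, so their matches need not be separate sites. A match of letters is a description and does not show binding.

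Genes of endoplasmic reticulum (ER) stress and the integrated stress response held large differences for single genes. Chac1, which degrades glutathione and is induced by ATF4, stood at 344, 565 and 371 normalised reads in Control IR and 164, 257 and 110.1 in VE-PTPiKO IR, 2.49-fold lower without overlap (log2 difference −1.31 ± 0.44 SE, unadjusted p = 0.0102; interaction −1.44 ± 0.62 SE, unadjusted p = 0.0373). Trib3, a pseudokinase target of ATF4 and CHOP, was lower without overlap (log2 difference −0.84 ± 0.39 SE, unadjusted p = 0.0479), and Ppp1r15a, the GADD34 feedback phosphatase subunit, lower with overlap (log2 difference −0.42 ± 0.17 SE, unadjusted p = 0.0279; −0.26 without VE-PTPiKO IR replicate 3 or without Control IR replicate 2). Atf5, another factor translated under stress, differed by −0.30 ± 0.20 SE. Over 18 genes, 15 had a negative difference with a median of −0.15, which was −0.03 without VE-PTPiKO IR replicate 3, and 0 were called.

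Osgin1, an NRF2-induced growth inhibitor, stood at 2591, 4074 and 2342 normalised reads in Control IR and 1533, 1636 and 2204 in VE-PTPiKO IR, 1.65-fold lower without overlap (log2 difference −0.72 ± 0.21 SE, unadjusted p = 0.00445; interaction −0.95 ± 0.30 SE, unadjusted p = 0.00700). Srxn1, the sulfiredoxin that repairs peroxiredoxins, was lower without overlap (−0.34 ± 0.20 SE; −0.14 without Control IR replicate 2). The median of 17 NRF2 targets was −0.14 (−0.03 without VE-PTPiKO IR replicate 3). Of 19 p53 target and DNA damage genes, 13 had a negative and 6 a positive difference. Among them Eda2r, which averaged 1.73 CPM over the IR libraries, had a positive log2 difference (0.85 ± 0.36 SE). The BH3-only gene Bbc3, which encodes PUMA, had a negative one (−0.47 ± 0.23 SE). Hypoxia response and glycolysis genes had a median of −0.09 over 20 genes.

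Cytokine and chemokine genes leaned lower in VE-PTPiKO IR in 22 of 26 cases, but 0 had an unadjusted p under 0.05. The median was −0.17 (−0.29 to −0.13 leaving out each IR library). Il6, the acute-phase cytokine, stood at 12.8, 50.7 and 22.7 normalised reads in Control IR and 19.7, 9.79 and 14.2 in VE-PTPiKO IR, and Lif, its relative in the same family, at 34.2, 159 and 52.9 normalised reads in Control IR and 46.7, 31.6 and 29.4 in VE-PTPiKO IR. In both, Control IR replicate 2 was far above all other libraries, and the other 2 Control libraries overlapped the VE-PTPiKO range (log2 differences −0.77 ± 0.52 SE and −0.89 ± 0.56 SE, or −0.27 and −0.27 without Control IR replicate 2). Csf1, the growth factor of macrophages, differed by −0.35 ± 0.24 SE and the TNF-induced Tnfaip2 by −0.20 ± 0.16 SE.

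Genes of the neutrophil list did not separate the genotypes. Their summed level was 53.2, 143 and 60.4 CPM in Control IR and 57.0 to 73.1 in VE-PTPiKO IR, and the neutrophil surface marker Ly6g was at 3 reads or fewer in every IR library. The list includes Lcn2, described above among injury markers of the tubule, which averaged 37.9 CPM over the IR libraries. The summed level is therefore not one of neutrophil RNA alone. Of 15 genes 13 had a negative difference (median −0.28), but without Control IR replicate 2 only 6 did (median 0.07). The pattern-recognition lectin Clec4e stood at 25.6, 28.4 and 27.4 normalised reads in Control IR and 17.7, 8.70 and 10.9 in VE-PTPiKO IR, lower without overlap (log2 difference −1.12 ± 0.40 SE, unadjusted p = 0.0149). Csf3r, the receptor for G-CSF, was lower without overlap (−0.89 ± 0.45 SE; −0.36 without Control IR replicate 2) and the formyl peptide receptor Fpr2 overlapped (−1.17 ± 0.66 SE).

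Monocyte and macrophage genes summed to 244 to 256 CPM in Control IR and 222 to 248 in VE-PTPiKO IR. Of 16, 11 had a negative difference and 0 were called (median −0.21, and −0.02 with 8 negative without VE-PTPiKO IR replicate 2). The monocyte antigen Ly6c2 stood at 12.8, 10.7 and 15.1 normalised reads in Control IR and 5.19, 6.53 and 3.27 in VE-PTPiKO IR, lower without overlap (log2 difference −1.24 ± 0.45 SE, unadjusted p = 0.0160), and Aif1, which encodes IBA1, at 10.7, 5.33 and 22.7 normalised reads in Control IR and 9.35, 0 and 2.18 in VE-PTPiKO IR (log2 difference −1.91 ± 0.78 SE, unadjusted p = 0.0285; −1.07 without VE-PTPiKO IR replicate 2), both at few reads. The CSF1 receptor Csf1r (−0.19 ± 0.12 SE) and the complement gene C1qa (0.28 ± 0.20 SE) of resident macrophages had log2 differences of opposite sign. Red blood cell genes had a median of −0.39 over 6 genes with all 6 negative, which became 0.01 without VE-PTPiKO IR replicate 3. The anion exchanger Slc4a1, listed under both red blood cell and collecting duct genes, overlapped (−0.40 ± 0.25 SE). Whether levels of blood or leukocyte RNA took part in the differences of other lists was not tested.

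Coagulation and fibrinolysis genes summed to 1627 to 1710.3 CPM in Control IR and 1264 to 1535 in VE-PTPiKO IR, without overlap. F3, which encodes tissue factor and starts coagulation, stood at 2798, 2069 and 1858 normalised reads in Control IR and 1556, 2027 and 1209 in VE-PTPiKO IR (log2 difference −0.50 ± 0.18 SE, unadjusted p = 0.0147; −0.32 without VE-PTPiKO IR replicate 3 and −0.33 without Control IR replicate 1), with VE-PTPiKO IR replicate 2 inside the Control range. Plau, the urokinase plasminogen activator abundant in kidney tubules, stood at 18773, 17114 and 17542 normalised reads in Control IR and 16004, 14809 and 12243 in VE-PTPiKO IR, lower without overlap (log2 difference −0.32 ± 0.15 SE, unadjusted p = 0.0586; −0.21 without VE-PTPiKO IR replicate 3). The list had 10 of 14 genes with a negative difference, a median of −0.20 (−0.23 to −0.10 leaving out each IR library) and 0 calls.

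Metabolic genes gave differences of both signs. Gluconeogenesis genes were positive in 6 of 7 cases, with a median of 0.12 (0.08 to 0.24 leaving out each IR library). Of these 7, 0 were called and 0 had an unadjusted p under 0.05. In fatty acid oxidation and PPARa targets, 11 of 21 had a positive difference and the median was 0.04, with 10 to 17 positive on leaving out each IR library. Of the 21, 3 were higher without overlap (background 3.97%), among them Acot1, an acyl-CoA thioesterase with close paralogs, at 1895.6, 1418 and 1385 normalised reads in Control IR and 2630.2, 1980.0 and 2072 in VE-PTPiKO IR (log2 difference 0.51 ± 0.20 SE, unadjusted p = 0.0244), and Acaa2, the mitochondrial thiolase (log2 difference 0.34 ± 0.15 SE, unadjusted p = 0.0435). Oxidative phosphorylation genes had a median of 0.03, and single libraries set its sign. It was 0.21 without VE-PTPiKO IR replicate 3, with 17 of 18 positive, −0.10 without VE-PTPiKO IR replicate 1, with 17 negative, −0.07 without VE-PTPiKO IR replicate 2, with 16 negative, and −0.04 without Control IR replicate 3. The median of ribosomal protein genes was 0.05 and ran from −0.11 without VE-PTPiKO IR replicate 1 to 0.29 without VE-PTPiKO IR replicate 3. That of nuclear-retained RNAs was 0.30 and ran from −0.27 without VE-PTPiKO IR replicate 3 to 0.59 without VE-PTPiKO IR replicate 1.

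Genes of nephron segments were mostly level. The proximal tubule list had a median of −0.04 over 27 genes (−0.11 to 0.02 leaving out each IR library). Within it the dicarboxylate carrier Slc13a3 stood at 13639.5, 14799.9 and 14454 normalised reads in Control IR and 11169, 11817 and 9456 in VE-PTPiKO IR, lower without overlap (log2 difference −0.41 ± 0.12 SE, unadjusted p = 0.00544; interaction −0.57 ± 0.17 SE, unadjusted p = 0.00597). The organic anion transporters Slc22a6 (−0.31 ± 0.14 SE) and Slc22a7 (−0.39 ± 0.19 SE) had negative log2 differences with overlapping groups. Pvalb, the calcium buffer of the distal convoluted tubule, stood at 563, 688 and 597 normalised reads in Control IR and 364, 329.6 and 364 in VE-PTPiKO IR, 1.74-fold lower without overlap (log2 difference −0.80 ± 0.26 SE, unadjusted p = 0.00799), with a sham difference of −0.55. The calcium channel Trpv5 differed by −0.37 ± 0.19 SE, and in the podocyte list Nes, which encodes nestin, by −0.54 ± 0.21 SE.

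Fibroblast and mural cell genes were positive in 14 of 16 cases with a median of 0.23, which was 0.07 without VE-PTPiKO IR replicate 3 and 0.44 without Control IR replicate 3. Without Control IR replicate 1 the split was 8 positive to 8 negative, with a median of 0.02. Rgs5, a pericyte regulator of G-protein signalling, stood at 1216, 1055 and 1153 normalised reads in Control IR and 1302, 1869 and 1469 in VE-PTPiKO IR, higher without overlap (log2 difference 0.42 ± 0.15 SE, unadjusted p = 0.0137; 0.28 without VE-PTPiKO IR replicate 2), and the matrix proteoglycan Dcn overlapped (0.35 ± 0.16 SE). The sham differences of these were 0.27 and 0.24. Cell cycle genes were positive in 15 of 16 cases (median 0.21; 0.08 to 0.37 leaving out each IR library), with the ribonucleotide reductase subunit Rrm2 at 100.4, 88.9 and 120.1 normalised reads in Control IR and 144, 145 and 119.9 in VE-PTPiKO IR (0.40 ± 0.18 SE) and the replication licensing factor Mcm2 higher without overlap (0.33 ± 0.16 SE). Their summed level was 278 to 334 CPM in Control IR and 336 to 411 in VE-PTPiKO IR, without overlap.

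Among hormone and clock genes, Tsc22d3, the glucocorticoid-induced leucine zipper protein GILZ, stood at 2521, 2087 and 2008 normalised reads in Control IR and 3342, 2964 and 4234 in VE-PTPiKO IR, 1.58-fold higher without overlap (log2 difference 0.66 ± 0.19 SE, unadjusted p = 0.00465). Fkbp5, a co-chaperone also induced by glucocorticoids, differed by 0.21 ± 0.13 SE, and the median of the 12 glucocorticoid response genes was −0.02 (−0.05 to 0.08 leaving out each IR library). Nr1d1, the clock repressor REV-ERB alpha, stood at 1121, 1051 and 1178 normalised reads in Control IR and 709, 992 and 399 in VE-PTPiKO IR, lower without overlap (log2 difference −0.77 ± 0.27 SE, unadjusted p = 0.0130; interaction −1.23 ± 0.38 SE, unadjusted p = 0.00617). VE-PTPiKO IR replicate 3 was the lowest of its libraries, and without it the Nr1d1 difference was −0.41. Bhlhe40, a clock repressor that stress also induces, stood at 4177, 3972 and 3879.5 normalised reads in Control IR and 2817, 3216 and 3315 in VE-PTPiKO IR, likewise lower (log2 difference −0.37 ± 0.14 SE, unadjusted p = 0.0189). The labels used here do not give the hour of the day at collection. The urothelial keratin Krt15 stood at 26.7, 24.9 and 34.0 normalised reads in Control IR and 56.1, 53.3 and 53.4 in VE-PTPiKO IR, higher without overlap (log2 difference 0.92 ± 0.31 SE, unadjusted p = 0.0111), the uroplakin Upk1a overlapped (0.53 ± 0.26 SE), and all 7 urothelium markers were positive (median 0.11; 0.06 to 0.44, with 4 to 6 positive, leaving out each IR library). Adrenal cortex markers summed to 9.07 to 12.6 CPM in Control IR and 9.11 to 13.7 in VE-PTPiKO IR.

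**Figure D4:**
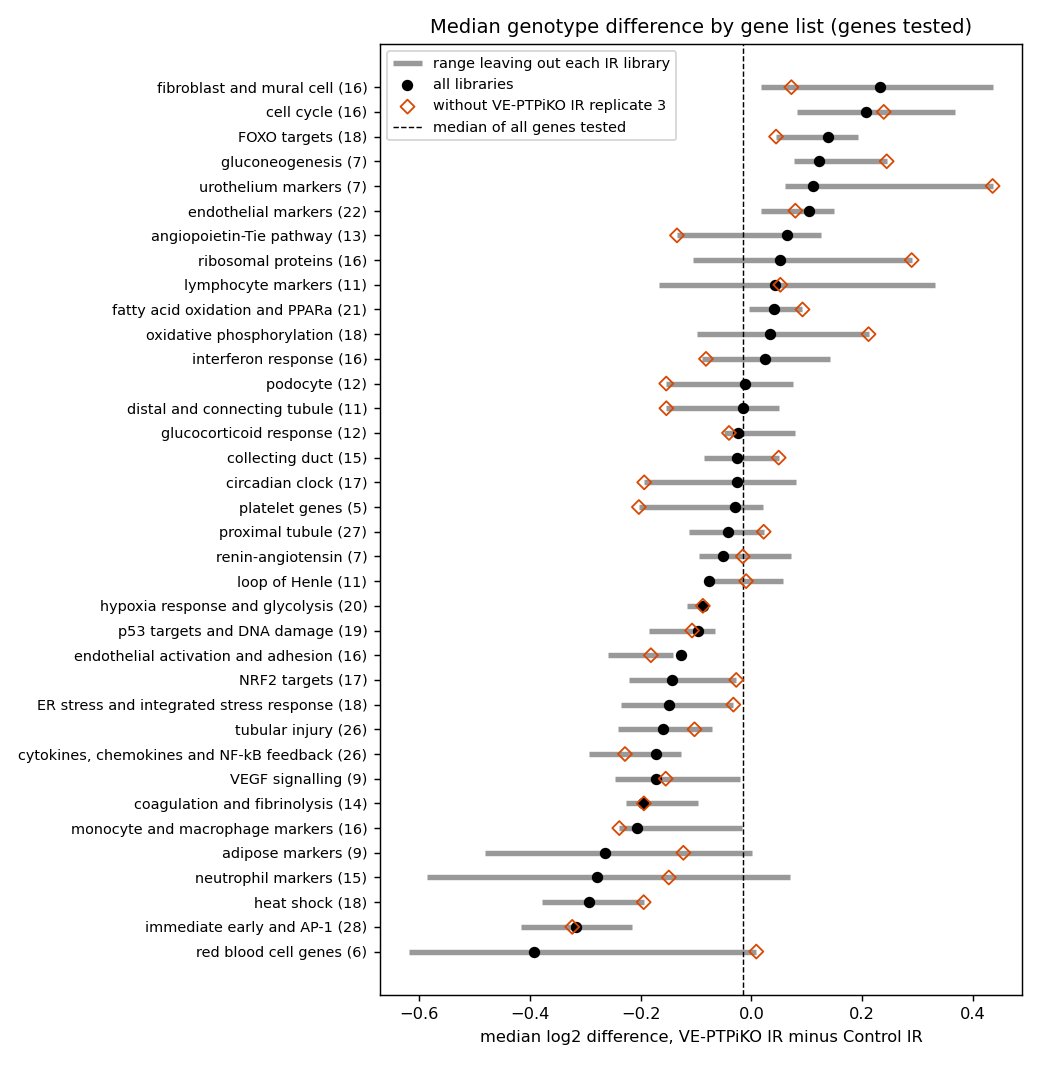
Median log2 difference of VE-PTPiKO IR minus Control IR (x axis) for each gene list with at least 5 genes tested (y axis, number tested in brackets), with all libraries (dots), without VE-PTPiKO IR replicate 3 (diamonds) and as the range on leaving out each IR library (bars). The range is −0.42 to −0.22 for immediate early and AP-1 genes and −0.38 to −0.19 for heat shock genes. Other lists also keep 1 sign, among them endothelial activation and adhesion (−0.26 to −0.14), cytokines (−0.29 to −0.13), FOXO targets (0.04 to 0.19) and cell cycle (0.08 to 0.37). The red blood cell median moves to 0.01 without VE-PTPiKO IR replicate 3.

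The naming rule took the 10 highest and 10 lowest differences among 920 genes of at least 5 CPM whose groups did not overlap, of which 260 were higher and 660 lower. These values were ranked by size, so their direction and separation are set by the choice. Mfsd4b5, a transporter gene in a cluster of relatives (mm10 chromosome 10, 39968153 to 39986646), stood furthest out at 2046, 2082 and 1686 normalised reads in Control IR and 129, 124 and 95.9 in VE-PTPiKO IR (16.6-fold lower; log2 difference −4.05 ± 0.73 SE, unadjusted p = 9.07e-05). Control sham replicate 3 was equally low, however, with sham levels of 1719.9, 1528 and 109 in Control and 1985, 1396 and 1741 in VE-PTPiKO. With that library left out the gene passed adjustment (limma adjusted p = 1.94e-07), as it did with only the 6 IR libraries in the fit (limma adjusted p = 1.54e-05) and by DESeq2 (adjusted p = 0.000416).

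Other genes at the low end included Rnd1, a small GTPase that disassembles adhesions, at 100.4, 213 and 91.7 normalised reads in Control IR and 66.5, 63.1 and 34.9 in VE-PTPiKO IR (log2 difference −1.23 ± 0.33 SE, unadjusted p = 0.00268; interaction −1.62 ± 0.47 SE, unadjusted p = 0.00447). Kcnh1, a voltage-gated potassium channel, stood at 132, 132 and 139 normalised reads in Control IR and 127, 13.1 and 93.7 in VE-PTPiKO IR, with VE-PTPiKO IR replicate 2 alone far down (−1.29 with it and −0.30 without). Cwc22, a splicing factor, stood at 945, 1065 and 1929 normalised reads in Control IR and 874, 937 and 226 in VE-PTPiKO IR and moved from −1.13 to −0.47 without VE-PTPiKO IR replicate 3. The remaining members were Sox9, Chac1, Atf3, Cyr61, Mmp10 and Hspa1a, given above.

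At the high end Pik3c2g, a class II phosphoinositide 3-kinase, stood at 76.9, 132 and 141 normalised reads in Control IR and 492, 176 and 196 in VE-PTPiKO IR (2.27-fold; log2 difference 1.19 ± 0.37 SE, unadjusted p = 0.00670), with VE-PTPiKO IR replicate 1 above the rest (0.72 without it). Cyp2a5, a cytochrome P450 of coumarin metabolism with close paralogs, stood at 1401, 1401 and 1088 normalised reads in Control IR and 3109, 3453 and 1997 in VE-PTPiKO IR (2.16-fold; log2 difference 1.11 ± 0.32 SE, unadjusted p = 0.00416), and its sham difference was 0.23. Pcdh12, the vascular endothelial protocadherin, stood at 155, 177 and 308 normalised reads in Control IR and 373, 319.9 and 435 in VE-PTPiKO IR (1.83-fold; log2 difference 0.87 ± 0.24 SE, unadjusted p = 0.00336), and at 373, 425 and 484 and 434, 515 and 703 in Control and VE-PTPiKO sham kidneys. The lectin-like Clec2d stood at 503, 421 and 292 normalised reads in Control IR and 689, 579 and 672 in VE-PTPiKO IR (log2 difference 0.70 ± 0.18 SE, unadjusted p = 0.00210; interaction 0.79 ± 0.26 SE, unadjusted p = 0.00947).

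The purinergic receptor P2rx7 (0.70 ± 0.32 SE; 0.43 without VE-PTPiKO IR replicate 3), the betaine transporter Slc6a12 (0.69 ± 0.29 SE) and the zinc finger genes Zfp866 (1.11 ± 0.30 SE), Zbtb26 (0.76 ± 0.32 SE; 0.50 without VE-PTPiKO IR replicate 3) and Rbak (0.68 ± 0.19 SE) completed the high end with Rsrp1, a serine- and arginine-rich protein gene. Rsrp1 stood at 791, 787 and 637 normalised reads in Control IR and 1159, 833 and 2928 in VE-PTPiKO IR, and it was also high in Control sham replicate 2 (936, 2575 and 1269 over Control sham) and VE-PTPiKO sham replicate 2 (784, 3658 and 1417 over VE-PTPiKO sham). Those 2 libraries and VE-PTPiKO IR replicate 3 are the 3 with the most Malat1. Without VE-PTPiKO IR replicate 3 the Rsrp1 difference was 0.42.

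A difference between genotypes that depends on injury was tested directly as an interaction over all 12 libraries. Limma called 0 of 16339 genes (percent called 0; smallest adjusted p 0.99946), with 432 (2.64%) at an unadjusted p under 0.05. This count was 1455 without VE-PTPiKO IR replicate 3, 2413 without the 3 libraries highest in Malat1 and 2825 with library weights, again with 0 called. The edgeR quasi-likelihood test and DESeq2 called 0 as well, with 414 and 387 at an unadjusted p under 0.05. No list held a called interaction. The smallest unadjusted interaction p among the genes named was that of Mfsd4b5, with an estimate of −5.41 ± 1.03 SE, unadjusted p = 0.000156. Its sham difference of 1.36 enlarges this estimate, and Control sham replicate 3 alone was low among the sham libraries. The unadjusted interaction p-values of Vcam1, Bag3, Osgin1, Slc13a3, Nr1d1 and Rnd1 lay between 0.00447 and 0.00700. All of these genes were named by their IR differences, which enter the interaction, so small values are in part set by that choice. For Ptprb the IR and sham differences were nearly equal at −0.45 and −0.43 (interaction −0.03 ± 0.28 SE, unadjusted p = 0.926).

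**Figure D5:**
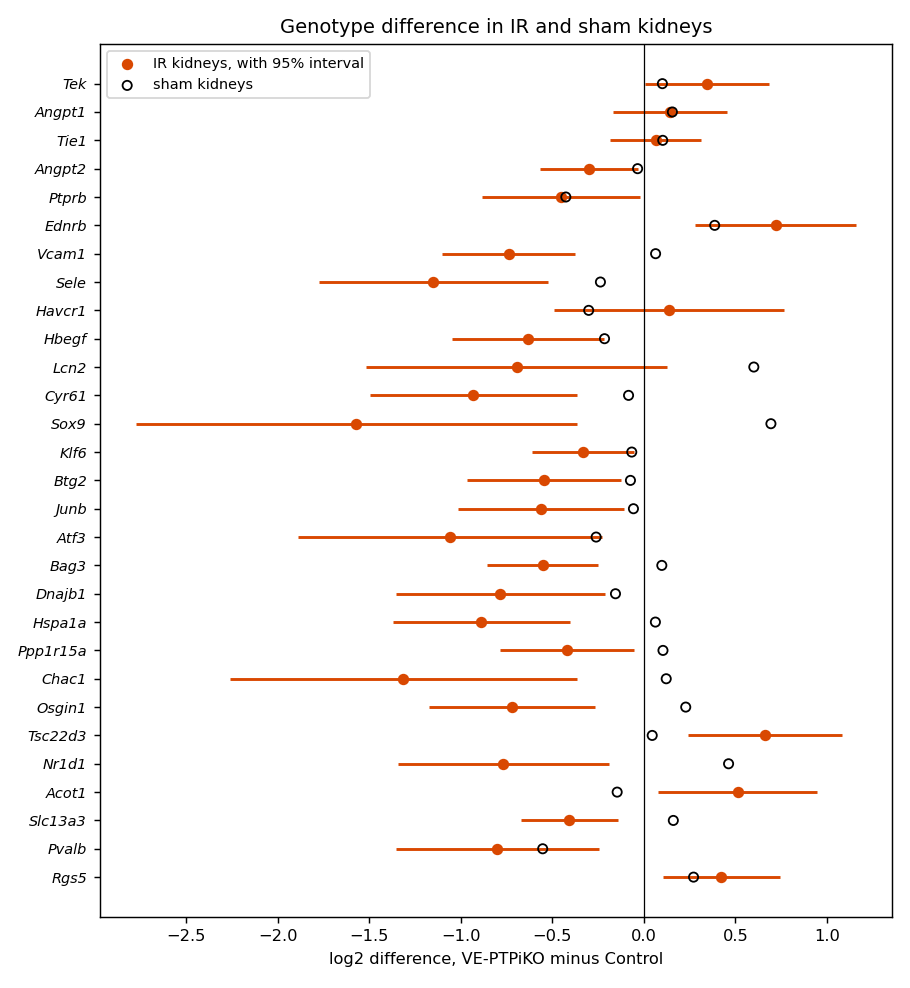
Log2 difference of VE-PTPiKO minus Control (x axis) for named genes in IR kidneys (filled points with 95% intervals) and sham kidneys (open points). For Ptprb both points coincide, while for Vcam1, Sox9, Bag3, Hspa1a and Nr1d1 the sham point lies outside the interval of the IR difference, which is no test of the interaction.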

How the data were processed

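Bulk RNA-seq of 12 whole-kidney libraries was used, and the 2 single-cell samples were not analysed here. The submitters' processing notes name FastQC, STAR, HTSeq and DESeq2 with mm10, without versions. The deposited values are a normalized signal: the authors divided each library's gene reads by a size factor, separately in each genotype's table, as the steps between values showed. Dividing by the value of 1 read gave whole reads for 100% of values (tolerance 0.02). Both tables were joined by Ensembl ID over 23286 genes, and all 12 libraries were rescaled jointly (median of ratios, 14828 genes). Table starts, which count from 0, are given from 1.

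Genes with a mean of at least 1 normalised read were tested by limma 3.58.1 (R 4.3.3) with a trend on log2(normalised reads + 1), 4 group means and Benjamini-Hochberg adjustment at 0.05. Fold changes are on this scale and understate those of low genes. The test was checked on simulated counts. The plan assumed normalized values, so edgeR 4.0.16 and DESeq2 1.42.0 on recovered reads were alternatives. Other alternatives were TMM, filters, pseudocounts, a replicate block, library weights, a minimum fold, the 6 IR libraries alone and leaving out each library. A length correction and leaving out the 3 libraries highest in Malat1 were chosen after seeing the data.

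Members and the 39 gene lists (585 of 594 entries matched) were chosen with earlier results of these data known. Named genes were Lcn2, Havcr1, Ptprb and the receptors and ligands Tek, Tie1, Angpt1 and Angpt2, the 10 highest and 10 lowest differences among non-overlapping genes of at least 5 CPM (predicted genes left out), and up to 4 list members of smallest p, of which some are not reported here. Replicate numbers showed no clear pairing of the IR libraries: deviations of same-numbered libraries correlated at −0.004 to 0.096. Their Spearman values were 0.18, 0.0007 and 0.23 for numbers 1, 2 and 3, against −0.21 to 0.14 for different numbers. Deviations within a group of 3 sum to 0, so these values cannot exclude pairing.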

Additional observations from a re-analysis of the deposited data

How the results depend on the processing

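The count of 0 genes in IR kidneys stayed at 0 in 22 of 25 alternatives. It became 1 by DESeq2, with only the 6 IR libraries in the fit, and without Control sham replicate 3 (0 to 1 over the 12 leave-one-out fits), and the gene was Mfsd4b5 each time (log2 −4.06, −4.04 and −4.05). The interaction count was 0 in 23 of 24 alternatives and 1, again Mfsd4b5, without Control sham replicate 3 (0 to 1 on leaving out each library). At unadjusted p under 0.05 the IR count ran from 399 without Control IR replicate 2 to 1467 without VE-PTPiKO IR replicate 3, and it was 2657 with library weights, which gave VE-PTPiKO IR replicate 3 a weight of 0.212. Without the 3 libraries highest in Malat1 it was 2009 with 0 called, and with the length correction 817. Whether replicate numbers pair the samples could not be settled. With the replicate block 0 genes were called in either test, with 756 at an unadjusted p under 0.05 in IR kidneys and 453 for the interaction.

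For single genes, 2339 of 2347 values under an alternative kept their sign and side of the threshold. Havcr1 became negative with library weights (−0.17), without the 3 libraries highest in Malat1 (−0.19) and without VE-PTPiKO IR replicate 3 (−0.20), and ran up to 0.50 on leaving out other libraries; the cause was not tested. Without Control IR replicate 1, Rps2 (−0.19) and Atp6v0c (−0.19) became negative, because that library alone held low levels of both in its group, and without Control IR replicate 3 they stood at 2.63 and 2.03. TMM moved the median of all genes from −0.02 to −0.0006. Intervals were wider for genes of few reads, where depth limits the contrast most.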

Other observations

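Some genes of at least 5 CPM split the 12 libraries into separate high and low levels that followed neither genotype nor injury alone. They were chosen after their values were seen, and their groups overlapped in IR kidneys. Cndp2, a cytosolic dipeptidase, stood at 30882, 26507 and 23254 normalised reads in Control IR and 31414, 4813 and 3728 in VE-PTPiKO IR, with 5055, 4076 and 4614 in Control sham and 5018, 4412 and 22233 in VE-PTPiKO sham. Its estimated IR difference was −1.69 ± 0.69 SE, the lowest after Mfsd4b5 among genes of at least 5 CPM, yet VE-PTPiKO IR replicate 1 was as high as the Control IR libraries and VE-PTPiKO sham replicate 3 stood above the other sham libraries.

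Rps2, a protein of the small ribosomal subunit, and Atp6v0c, a subunit of the vacuolar proton pump, both on chromosome 17, were low together in the same 2 libraries. Control IR replicate 1 held 28.8 reads of Rps2 and 35.2 of Atp6v0c, and VE-PTPiKO sham replicate 3 held 22.8 and 21.7. The other 10 libraries held at least 508 and 367. Ttr, which encodes transthyretin of liver and choroid plexus, stood at 22.9, 6.53 and 1081 in VE-PTPiKO IR and 10.7, 7.11 and 8.51 in Control IR, so that 1 library set its estimate of 2.58 ± 1.27 SE. Vwa1, a matrix gene of basement membranes, stood at 1539, 987 and 1459 in Control IR and 212, 1846 and 234 in VE-PTPiKO IR, and VE-PTPiKO sham replicate 1 was low as well at 324. Exons of Vwa1 overlap another gene over 25.2% of their length. The causes of these splits were not tested.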
